A study of Mus musculus with 24 samples.

Results

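The response of the mouse brain to lipopolysaccharide (LPS, the endotoxin of gram-negative bacterial cell walls) was compared between 2 genotypes by subtraction. For each gene, the log2 LPS change in wild type libraries (LPS against PBS) was taken from the log2 LPS change in Nox2 knockout libraries. A negative difference means that the LPS change was lower in the knockout libraries, and a positive difference that it was higher there. All 24 libraries of the series, 6 in each of 4 groups, enter this difference, and it was fitted for every gene that passed a filter on low counts, 14380 of the 55421 identifiers in the table. Throughout, the difference between the LPS changes is called the interaction and is given in log2 units with its standard error (SE) or its 95% interval.

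The 4 groups of 6 animals were wild type mice after PBS, wild type mice after LPS, Nox2 knockout mice after PBS and Nox2 knockout mice after LPS. All mice were 3 months old and labelled as strain C57BL/6J. Each received a daily intraperitoneal injection of 100 µl over 4 days, either LPS from Salmonella abortus equi at 1 µg per g body weight per day or phosphate-buffered saline (PBS). RNA came from the left hemisphere and was counted as 3′ tags, short reads near the end of each transcript, so each library mixes all cell types of the hemisphere. The knockout is labelled without a cell type or a driver. The part of the gene that was disrupted and the breeding of the wild type mice are not stated in the sources used here.

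Library totals ran from 2340184 to 5256169 counts. Levels are given as CPM, counts scaled to a total of 1000000 per library, so 1 CPM stood for 2.34 to 5.26 counts, and this depth limits what can be seen for genes of a few CPM. Defining genes of the hemisphere's main cell types were present, with means over all libraries of 1502 CPM for the neuronal gene Syt1, 1764 CPM for the myelin gene Mbp, 2147 CPM for the astrocyte gene Slc1a2, 69.3 CPM for the microglial gene Csf1r and 80.5 CPM for the endothelial gene Cldn5. Wild type LPS libraries 1 and 2 stood apart from the other wild type LPS libraries, with a summed level of the acute phase genes of 976 and 966 CPM against 1407 to 1808 CPM in libraries 3 to 6. The summed level of the mitochondrially encoded genes was 29073 and 28345 CPM in libraries 1 and 2 against 20652 to 26195 CPM in libraries 3 to 6. List medians below that move by more than 1.5 times without these 2 libraries are given with both values, and the calls made without them are described as a whole. In bulk tissue, fewer cells of a type and less RNA per cell cannot be told apart.

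Nox2 is the electron-transferring core of the NADPH oxidase of phagocytes, and its gene is Cybb on the X chromosome. In the membrane it forms a heterodimer with p22phox (Cyba), and on activation cytosolic subunits, among them p47phox (Ncf1) and p40phox (Ncf4), join it with a Rac GTPase, after which the complex passes electrons to oxygen and makes superoxide. In the brain it is best known from microglia. LPS is sensed by Toll-like receptor 4, and repeated systemic injections are known to raise acute phase, cytokine, complement and interferon-inducible genes in brain endothelium, astrocytes and microglia.

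Promoter sequence is shown for Cybb, the only gene whose interaction passed the threshold, and for Ctsd, the lysosomal protease gene next closest to it among well-characterised genes together with Pbxip1. Both windows hold the 250 bases before the RefSeq transcription start in GRCm38.p6 and are written 5′ to 3′ on the gene's own strand, the minus strand. In the Cybb promoter (chrX:9469325-9469574) capitals mark GAAA repeated after any 2 bases, on either strand, an element that interferon regulatory factors bind. In the Ctsd promoter (chr7:142387828-142388077) capitals mark CACGTG, the palindromic E-box bound by basic helix-loop-helix factors such as TFEB and MYC.
Cybb: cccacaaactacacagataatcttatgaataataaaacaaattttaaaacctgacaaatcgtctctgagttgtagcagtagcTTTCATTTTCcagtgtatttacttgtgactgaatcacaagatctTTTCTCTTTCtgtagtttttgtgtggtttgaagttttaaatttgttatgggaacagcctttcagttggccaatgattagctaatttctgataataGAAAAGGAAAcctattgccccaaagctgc
Ctsd: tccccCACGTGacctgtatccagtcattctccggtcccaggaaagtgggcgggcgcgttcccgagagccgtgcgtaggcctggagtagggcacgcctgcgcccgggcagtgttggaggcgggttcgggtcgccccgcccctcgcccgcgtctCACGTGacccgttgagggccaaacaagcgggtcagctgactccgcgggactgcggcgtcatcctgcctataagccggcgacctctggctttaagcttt
The Cybb window held 3 matches to the spaced GAAA repeat, beginning 168, 124 and 29 bases before the start, which do not overlap each other. A match to this motif was found in 2.98% of the 32851 promoter windows in the RefSeq table. The Ctsd window held 2 matches to CACGTG, beginning 245 and 98 bases before the start, and 6.02% of windows held this motif. GAGGAA, one form of the sites that the myeloid factor PU.1 binds, was searched on both strands too. Neither window contained this form, against 23.3% of all windows that did. Shorter or other forms were not searched. These matches describe the letters in the windows and nothing about binding.

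Cybb was the only gene with a called interaction, which is 0.00695% of the 14380 genes tested by edgeR's quasi-likelihood test at a Benjamini-Hochberg adjusted p under 0.05. No gene was called with a higher LPS change in knockout libraries. Without adjustment, 1407 genes had a p under 0.05 (9.78% of all tested), 586 with a higher and 821 with a lower LPS change in knockout. limma-voom also called Cybb alone, and DESeq2 called 1 gene higher and 24 lower. DESeq2 gave Cybb a log2 interaction of -3.92 but no adjusted p. Many other genes named below had no adjusted p from DESeq2 either, so for them a missing DESeq2 call is not a test result. The 25 genes of DESeq2 included Ctsd (-0.39, adjusted p = 0.00504) and S100b (-0.36, adjusted p = 0.00554). Also among them were Ndrg2, Clu, Lamp1, Cd63, Sparc, Apoe and Prdx6, with adjusted p-values from 0.0178 to 0.0473. All 9 were lower in knockout, and edgeR called none of them. In what follows, called without a tool means edgeR.

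Cybb tags ran from 0.850 to 2.47 CPM (median 1.42) in wild type PBS libraries and from 15.6 to 33.8 CPM (median 24.7) in wild type LPS libraries. In libraries labelled knockout they ran from 62.2 to 75.2 CPM (median 66.8) after PBS and from 66.7 to 77.8 CPM (median 72.4) after LPS. The wild type groups did not overlap each other, the knockout groups did, and every knockout library was above every wild type library. On the log2 scale, Cybb rose by 3.99 ± 0.22 (SE) with LPS in wild type, and the knockout change was 0.09 ± 0.10 with an adjusted p of 0.680. The interaction was -3.90 ± 0.25 (adjusted p = 2.34e-15, edgeR). Expressed in CPM, the LPS change was 23.1 ± 3.31 (SE) in wild type and 4.37 ± 2.77 in knockout, a difference of -18.7 ± 4.31 CPM, so the sign does not depend on the log scale. Between genotypes, Cybb was 5.42 log2 units higher in knockout after PBS (adjusted p = 1.86e-26) and 1.52 log2 units higher after LPS (adjusted p = 7.35e-14). The 3′ tags therefore do not check the genotype labels: they lie at the end of the transcript and were more abundant, not absent, in the libraries labelled knockout. Wild type LPS libraries 1 and 2 had the lowest Cybb levels of their group, 15.6 CPM each, and without them the interaction was -4.13 (adjusted p = 1.42e-20).

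**Figure D1:**
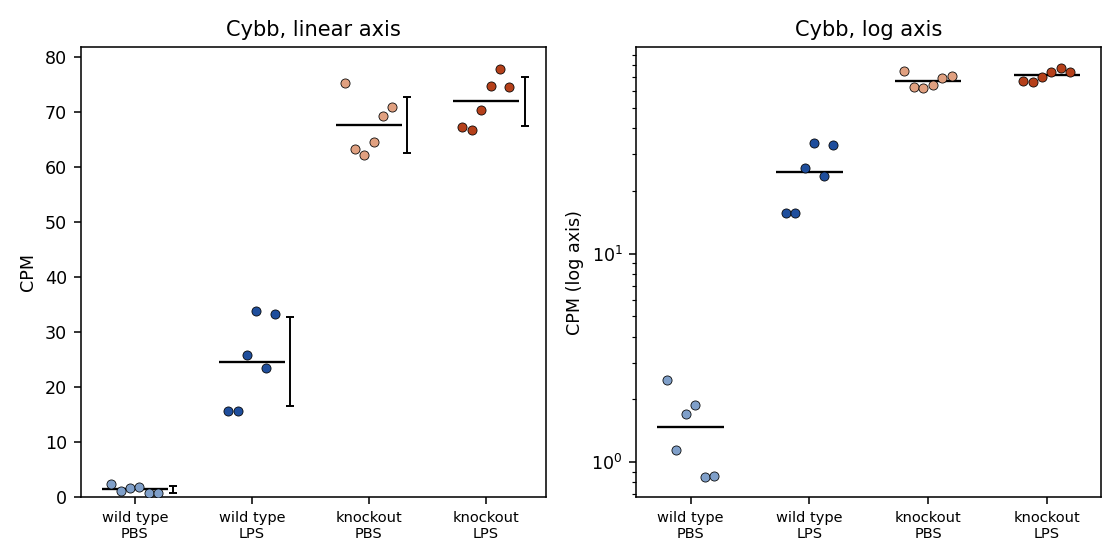
Cybb level in each of the 24 libraries, in CPM on a linear axis (left) and a log axis (right). Points are libraries, lines are group means and bars on the left are SD (n = 6 a group). Wild type libraries go from a mean of 1.48 CPM after PBS to 24.6 CPM after LPS, and libraries labelled knockout stay between 62.2 and 77.8 CPM after either injection.

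Among the other oxidase genes, Cyba, Ncf1, Ncf4 and Rac2 rose with LPS in both genotypes. Cyba, the membrane partner of Nox2, rose by 2.06 ± 0.15 (SE) in wild type and by 2.16 ± 0.16 in knockout, with an interaction of 0.10 and a 95% interval from -0.36 to 0.57. Ncf1, the organiser subunit, rose by 1.72 and 1.86 with an interaction of 0.14 (interval -0.35 to 0.63), and Rac2, the haematopoietic GTPase of the complex, rose by 3.72 and 3.10 with an interaction of -0.62 (interval -1.61 to 0.37). For Cyba and Ncf1 these intervals leave out a difference of 1 log2 unit in either direction, and for Rac2 they do not. Ncf4 rose by 2.44 in wild type and by 2.34 in knockout at levels under 6 CPM in each group mean, and its interval ran from -2.31 to 2.10, so little can be said of its difference at this depth. Rac1, the ubiquitous GTPase, had LPS values of 0.08 and -0.01 that did not pass the test. Of the 8 oxidase genes tested, 4 had an interaction above 0 and 4 below, with a median of -0.03 (-0.07 without wild type LPS libraries 1 and 2), against 50.5% below 0 and a median of -0.002 over all genes.

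Acute phase genes had very large LPS changes in both genotypes, and none of their interactions was called. Saa3, an acute phase serum amyloid gene, ran from 0.850 to 2.99 CPM (median 1.85) in wild type PBS and from 728 to 1455 CPM (median 1121) in wild type LPS. In knockout it ran from 0.671 to 5.24 CPM (median 1.36) after PBS and from 215 to 918 CPM (median 545) after LPS. Every LPS library was over 200 CPM and every PBS library under 6 CPM, while the LPS groups overlapped between genotypes. The Saa3 change was 9.24 ± 0.35 (SE) in wild type and 8.16 ± 0.36 in knockout, and the interaction was -1.08 (interval -3.20 to 1.04, adjusted p = 0.788). Each SE and interval comes from its own test, so the SE of the 2 changes do not give the width of this interval. After LPS alone, the Saa3 genotype difference was -0.94 log2 units, lower in knockout (adjusted p = 0.00172). The PBS groups held 43 and 44 Saa3 counts in all.

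Lcn2, which encodes the iron-siderophore carrier lipocalin 2, rose by 7.25 in wild type and by 6.43 in knockout, with an interaction of -0.82 (interval -2.78 to 1.14). Serpina3n, a protease inhibitor of reactive astrocytes, ran from 90.3 to 149 CPM (median 103) in wild type LPS and from 28.5 to 130 CPM (median 71.6) in knockout LPS. Its change was 4.40 ± 0.23 (SE) in wild type and 3.53 ± 0.23 in knockout, with an interaction of -0.87 (interval -1.67 to -0.07, adjusted p = 0.458). All 5 tested acute phase genes rose in both genotypes, and all 5 had an interaction below 0, with a median of -0.87. Over all genes tested 50.5% had an interaction below 0, and over the genes raised by LPS on average 72.9% did. Knockout LPS libraries 2 and 5 had the lowest Saa3, 215 and 328 CPM, and library 2 the lowest Serpina3n. The summed level of the list ran from 966 to 1808 CPM in wild type LPS and from 323 to 1223 CPM in knockout LPS.

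Genes of neutrophils and of monocytes and border macrophages also rose with LPS in both genotypes. S100a8, a calgranulin subunit stored in neutrophils, ran from 64.7 to 380 CPM (median 145) in wild type LPS and from 47.8 to 207 CPM (median 93.1) in knockout LPS, from medians of 6.60 and 7.39 CPM after PBS. Its interaction was -1.25 (interval -2.58 to 0.08, adjusted p = 0.552). The LPS groups overlapped over most of their range. All 10 neutrophil genes tested of 15 rose in both genotypes, 9 had an interaction below 0, and the median was -0.84. The neutrophil list summed to 153 to 765 CPM in wild type LPS and to 114 to 424 CPM in knockout LPS. Of the 14 tested monocyte and border macrophage genes, 13 rose in each genotype and 10 had an interaction below 0, with a median of -0.32. Of all genes tested, 10.9% rose in wild type, 7.05% rose in knockout and 50.5% had an interaction below 0. Among the genes raised by LPS on average, 72.9% were below 0, and the monocyte and border macrophage count is near that share. Ccr2, the chemokine receptor of inflammatory monocytes, had an interaction of -1.64 (interval -3.19 to -0.09), and Lyz2, the macrophage lysozyme, of -0.51 (interval -1.06 to 0.05). No gene of either list was called, and the part of blood-borne cells in the other values was not tested.

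The genes that responded to LPS were then taken as a whole. They were picked by the mean of the 2 LPS changes, a contrast that in this balanced design does not use the difference between the genotypes. It called 3259 genes (22.7% of all tested), 1793 raised (12.5%) and 1466 lowered (10.2%). Of the raised genes, 72.9% had an interaction below 0, with a median of -0.13. Of the lowered genes, 37.0% did, with a median of 0.03. Of the 465 genes raised by more than 1 log2 unit on average, 74.8% had an interaction below 0, with a median of -0.24. These shares describe genes that share libraries and are not independent, so they carry no test. Leaving out each library in turn, the share below 0 ran from 69.8 to 74.3% among raised genes and from 32.1 to 41.1% among lowered genes. Without wild type LPS libraries 1 and 2 it was 76.7% and 30.4%. With libraries left out the design is not balanced, so the mean LPS change and the interaction are then not independent. Those 2 libraries were also singled out in part by levels of LPS-responsive genes, so this last shift adds no evidence.

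The same data bound how far the responses can differ. The 95% interval of the interaction lay within 1 log2 unit of 0 in either direction for 12569 genes, 87.4% of all tested. This held for 1377 of the 1793 raised genes (76.8%), for 1426 of the 1466 lowered genes (97.3%) and for 205 of the 465 genes raised by more than 1 log2 unit (44.1%). The median half-width of the interval was 0.31 log2 units over all genes and 0.752 among the 465. In counts of calls, LPS raised 1572 (10.9% of all tested) and lowered 1024 genes (7.12%) in wild type, and raised 1014 (7.05%) and lowered 550 (3.82%) in knockout. These counts do not show a different response, since only the interaction tests the difference.

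**Figure D2:**
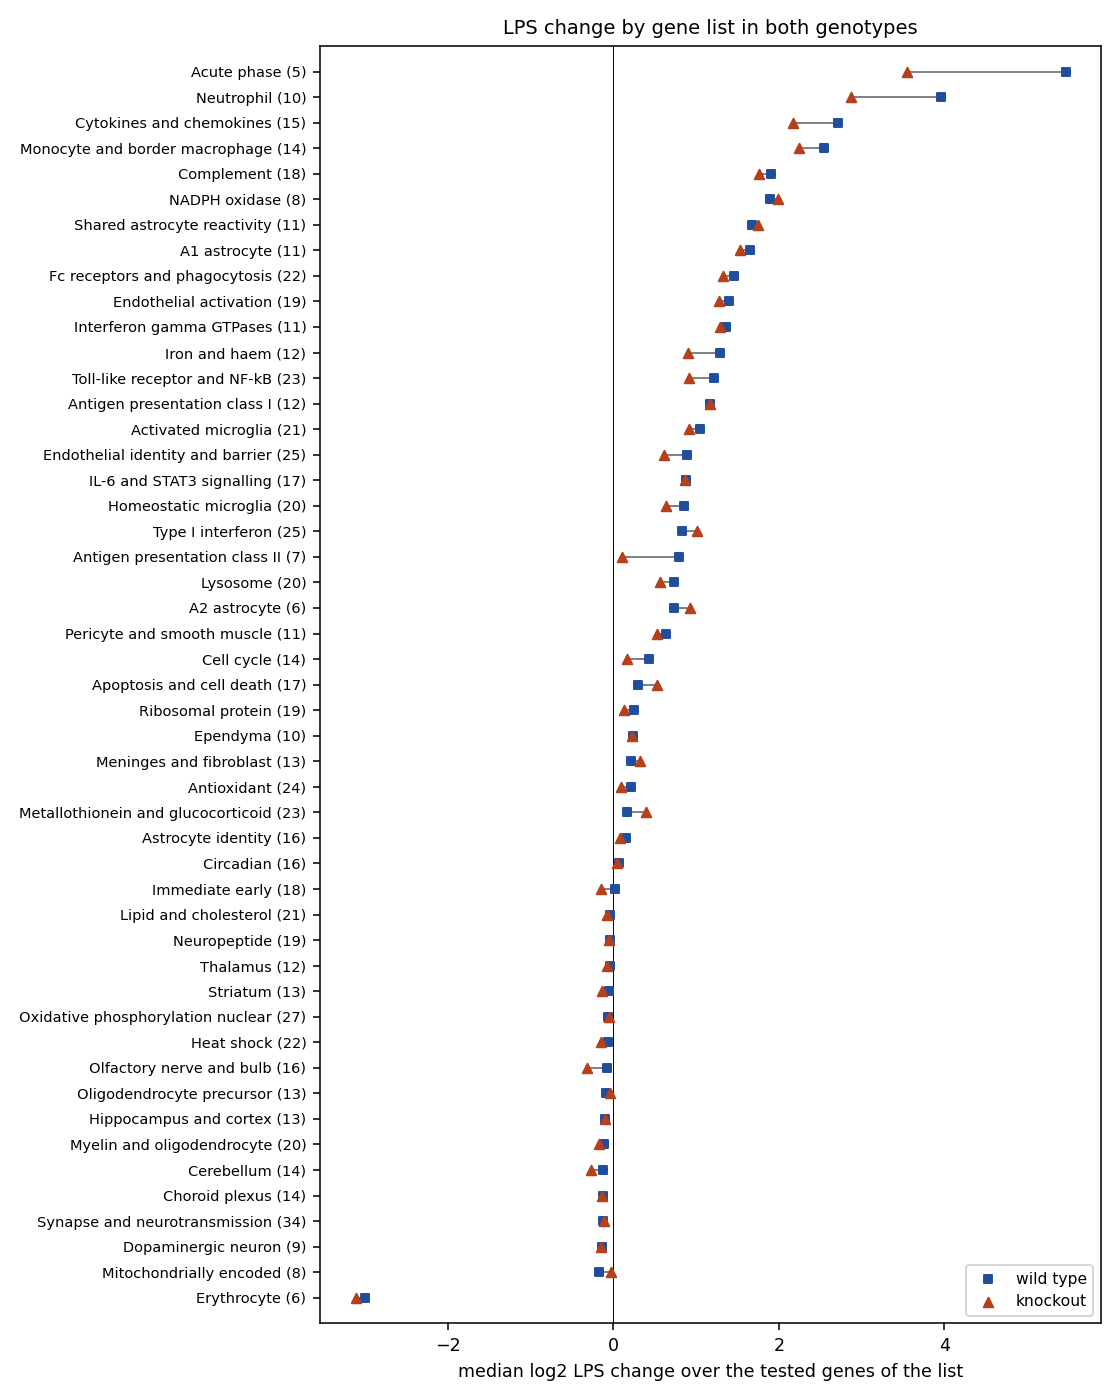
Median log2 LPS change over the tested genes of each gene list (number in brackets) in wild type (squares) and knockout (triangles), joined by a line, for lists with at least 5 tested genes. Acute phase genes have the widest gap, 5.46 in wild type against 3.55 in knockout. This list has only 5 tested genes, and the gap between its medians is wider than its median interaction of -0.87. Single interactions in it went down to -1.91. Most neuronal and glial identity lists lie near 0 in both genotypes.

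On the side of a lower LPS change in knockout, the genes of smallest p after Cybb were Pbxip1, Ctsd, S100b, Id3, Plekho2, Sox9 and Rassf1. None of them was called by edgeR. DESeq2 called Ctsd and S100b, and it gave Pbxip1, Id3, Plekho2, Sox9 and Rassf1 no adjusted p. Pbxip1 (chr3:89436706-89450952) encodes a protein that binds a homeodomain transcription factor. Its level ran from 70.5 to 85.7 CPM (median 77.7) in wild type PBS, from 130 to 162 CPM (median 153) in wild type LPS, from 79.0 to 90.7 CPM (median 87.7) in knockout PBS and from 99.8 to 126 CPM (median 125) in knockout LPS. LPS libraries were above PBS libraries in each genotype, and every wild type LPS library was above every knockout LPS library. Pbxip1 rose by 0.93 ± 0.06 (SE) in wild type and by 0.49 ± 0.06 in knockout, and the interaction of -0.44 ± 0.09 had an adjusted p of 0.0530.

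Ctsd (chr7:142375911-142388038), the lysosomal aspartyl protease cathepsin D, showed the same order of groups. It ran from 259 to 282 CPM (median 273) in wild type PBS, from 479 to 653 CPM (median 580) in wild type LPS, from 256 to 313 CPM (median 288) in knockout PBS and from 401 to 488 CPM (median 463) in knockout LPS. The LPS groups overlapped only through wild type libraries 1 and 2, at 483 and 479 CPM. Ctsd rose by 1.05 ± 0.06 (SE) in wild type and by 0.65 ± 0.06 in knockout, with an interaction of -0.40 ± 0.08 (adjusted p = 0.0530). For both genes the genotypes were close after PBS (0.13 and 0.08, not called) and lower in knockout after LPS (-0.31 for each, adjusted p = 0.00258 for Pbxip1 and 0.00114 for Ctsd). Without wild type LPS libraries 1 and 2 both interactions were called, Pbxip1 at -0.51 (adjusted p = 0.00167) and Ctsd at -0.49 (adjusted p = 8.32e-05). Those libraries were singled out in part by levels of LPS-responsive genes, so these calls add no separate evidence. Leaving out single libraries also brought calls, for Pbxip1 with wild type PBS library 3, wild type LPS libraries 1, 2 and 3, knockout PBS library 4 or knockout LPS library 4, and for Ctsd with wild type LPS libraries 1 and 2, knockout PBS library 1 or knockout LPS library 4. Over all 24 such fits, adjusted p-values ran from 0.00818 to 0.157 for Pbxip1 and from 0.00818 to 0.195 for Ctsd.

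S100b (chr10:76253853-76261159), a calcium-binding protein of astrocytes, differed in another way. It ran from 665 to 795 CPM (median 712) in wild type PBS and from 645 to 812 CPM (median 724) in wild type LPS, against 712 to 872 CPM (median 824) in knockout PBS and 592 to 653 CPM (median 633) in knockout LPS. The knockout groups did not overlap each other and the wild type groups overlapped almost wholly. S100b fell by 0.36 in knockout, its wild type value was 0.00 (adjusted p = 0.981), and the interaction of -0.36 ± 0.08 was not called (adjusted p = 0.0853). Leaving out single libraries gave S100b adjusted p-values from 0.0141 to 0.263, with calls without wild type LPS libraries 1, 2 or 3 or knockout PBS libraries 1 or 4. Id3, a transcriptional inhibitor of the helix-loop-helix family, rose by 1.13 in wild type and by 0.65 in knockout (interaction -0.49, adjusted p = 0.146).

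Plekho2, Sox9 and Rassf1 passed the test in wild type only, by 0.75, 0.57 and 0.57. Their knockout values were -0.00, 0.16 and -0.02, and their interactions of -0.75, -0.41 and -0.59 were not called (adjusted p = 0.153, 0.172 and 0.172). Sox9 is the transcription factor of the astrocyte lineage and Rassf1 a RAS-association domain tumour suppressor. For Plekho2, a pleckstrin homology domain protein, the knockout PBS libraries (19.5 to 25.4 CPM, median 22.1) were mostly above the wild type PBS libraries (12.7 to 23.2 CPM, median 14.6), and the LPS groups overlapped. The lower LPS change of Plekho2 thus lay mainly between the PBS groups, with a genotype difference of 0.55 after PBS (adjusted p = 0.0573) and -0.19 after LPS.

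**Figure D3:**
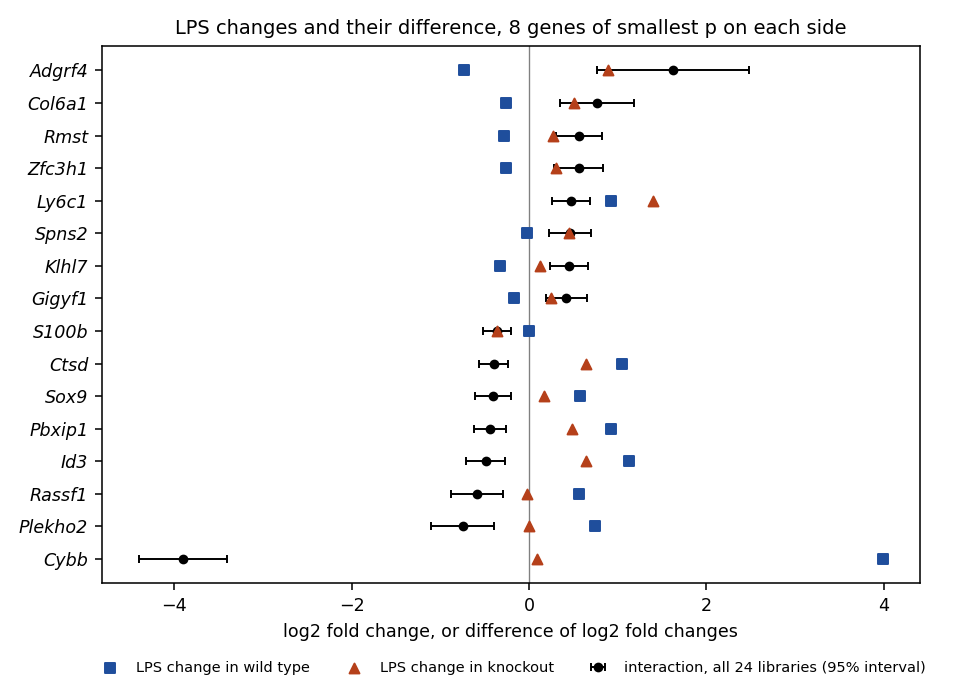
Interaction with its 95% interval (black circles), LPS change in wild type (blue squares) and LPS change in knockout (orange triangles) for the 8 genes of smallest p on each side, in log2 units. Only Cybb, at -3.90, was called by edgeR, and the other 15 genes have edgeR adjusted p-values from 0.0530 to 0.229.

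On the side of a higher LPS change in knockout, the genes of smallest p with a standard symbol were Ly6c1, Rmst, Klhl7, Zfc3h1, Spns2, Adgrf4, Gigyf1 and Col6a1. None was called by edgeR, and DESeq2 gave none of them an adjusted p. Ly6c1 (chr15:75044018-75048830), a surface antigen of brain endothelium and of monocytes, ran from 29.8 to 36.8 CPM (median 35.5) in wild type PBS, from 62.9 to 74.3 CPM (median 64.1) in wild type LPS, from 20.7 to 30.9 CPM (median 26.3) in knockout PBS and from 64.5 to 75.7 CPM (median 68.5) in knockout LPS. LPS and PBS libraries did not overlap in either genotype, and the LPS groups overlapped each other. Ly6c1 rose by 0.92 ± 0.07 (SE) in wild type and by 1.40 ± 0.08 in knockout, with an interaction of 0.47 ± 0.11 (adjusted p = 0.146). Its genotypes differed after PBS, by -0.41 (adjusted p = 0.0141), and the value after LPS was 0.06 (adjusted p = 0.788). Ly6c1 shares sequence with Ly6c2, so its counts are uncertain where reads match both.

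Rmst, a long non-coding RNA of neural cells, fell by 0.29 in wild type and rose by 0.27 in knockout. Its level ran from 26.9 to 33.8 CPM (median 29.9) in wild type PBS, from 21.1 to 29.0 CPM (median 24.4) in wild type LPS, from 21.3 to 30.7 CPM (median 28.7) in knockout PBS and from 29.1 to 35.3 CPM (median 33.7) in knockout LPS. After LPS every knockout library was above every wild type library, and after PBS the genotypes overlapped. The Rmst interaction was 0.56 ± 0.13 (adjusted p = 0.146). Klhl7, a substrate adaptor of a cullin ubiquitin ligase, fell by 0.33 in wild type, with a knockout value of 0.12 and an interaction of 0.45 (adjusted p = 0.172). Zfc3h1, a zinc finger protein of nuclear RNA decay, rose by 0.30 in knockout, with a wild type value of -0.26 and an interaction of 0.56 (adjusted p = 0.172).

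Spns2, the endothelial sphingosine-1-phosphate exporter, rose by 0.45 in knockout against a wild type value of -0.02 (interaction 0.46, adjusted p = 0.199). Col6a1, a collagen VI chain, rose by 0.50 in knockout against a wild type value of -0.26 (interaction 0.77, adjusted p = 0.229). Gigyf1, a translational repressor subunit, rose by 0.25 in knockout against -0.17 in wild type (interaction 0.42, adjusted p = 0.229). Adgrf4, an adhesion G protein-coupled receptor, had the largest value of the 8, 1.63 (interval 0.77 to 2.49, adjusted p = 0.205), at group means of 1.52 to 3.16 CPM. A protein-coding gene with no symbol (ENSMUSG00000095041), on the unplaced scaffold JH584304.1, stood closer to the threshold, with an interaction of 1.42 ± 0.29 and an adjusted p of 0.0530. It lies outside the naming rule and was chosen after its values were seen.

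**Figure D4:**
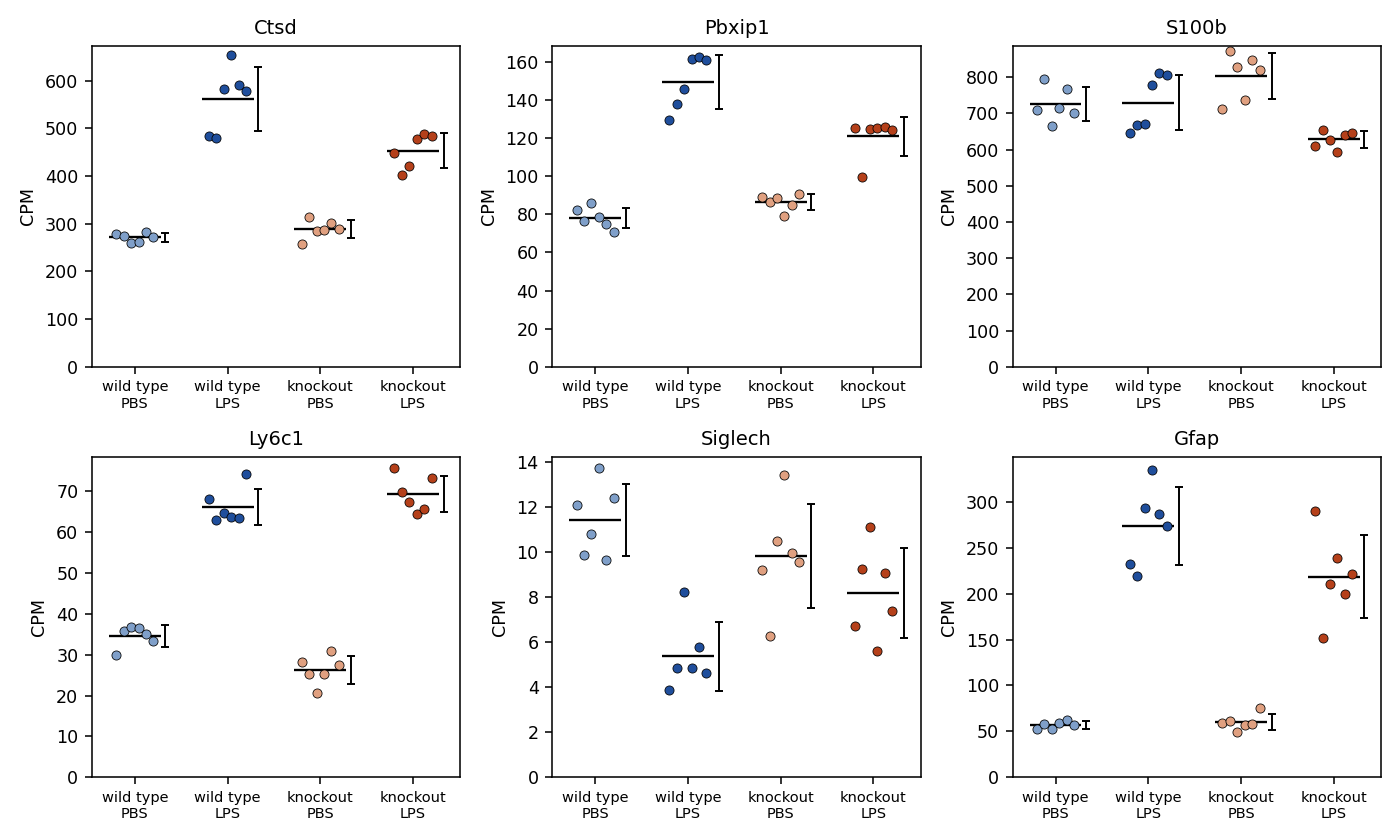
Levels of Ctsd, Pbxip1, S100b, Ly6c1, Siglech and Gfap in each library (points), in CPM on axes that start at 0, with group means (lines) and SD (bars, n = 6 a group). Pbxip1 separates the genotypes after LPS, S100b is lowest in knockout LPS, and Ly6c1 differs between the genotypes after PBS.

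The oxidase acts in phagocytes, and the microglial and phagocytic lists were read gene group by gene group. List counts here and in the following paragraphs stand against 10.9% of all tested genes raised in wild type, 7.05% raised in knockout and 50.5% with an interaction below 0, and lists of LPS-raised genes also against the 72.9% below 0 among all raised genes. A list near these shares is not set apart by its count. Of the 20 tested lysosomal genes, 17 rose with LPS in wild type and 16 in knockout, and 16 had an interaction below 0, with a median of -0.14. Grn, the lysosomal protein progranulin, rose by 1.57 and 1.21 (interaction -0.36, adjusted p = 0.277). Lamp1, a lysosomal membrane glycoprotein, rose by 0.32 in wild type, with a knockout value of 0.07 and an interaction of -0.25 (adjusted p = 0.229). Of the 21 activated microglia genes, 19 rose in each genotype and 17 had an interaction below 0 (median -0.18, and -0.30 without wild type LPS libraries 1 and 2). Among them Cd63, a tetraspanin of late endosomes, rose by 0.74 and 0.35 (interaction -0.39, adjusted p = 0.199), and Apoe, the lipid carrier, rose by 0.60 and 0.41 (interaction -0.18, adjusted p = 0.293). edgeR called no gene of these lists, and DESeq2 called Ctsd, Lamp1, Cd63 and Apoe.

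Of the 20 homeostatic microglia genes, 14 had an interaction below 0, with a median of -0.13. Siglech, a sialic acid-binding lectin of microglia, went the other way. It ran from 9.64 to 13.8 CPM (median 11.4) in wild type PBS, from 3.90 to 8.22 CPM (median 4.83) in wild type LPS, from 6.27 to 13.4 CPM (median 9.77) in knockout PBS and from 5.61 to 11.1 CPM (median 8.23) in knockout LPS. The wild type groups did not overlap and the knockout groups did. Siglech fell by 1.07 in wild type, its knockout value was -0.28 (adjusted p = 0.397), and the interaction of 0.79 ± 0.26 was not called (adjusted p = 0.293). Sall1, a transcription factor of microglial identity, rose by 0.68 in wild type against 0.18 in knockout (interaction -0.49, adjusted p = 0.293). Sparc, a matrix glycoprotein that stands in this list and is also made by endothelium, rose by 1.03 and 0.69 (interaction -0.34, adjusted p = 0.214 with edgeR and 0.0276 with DESeq2).

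Complement genes rose alike in number, 13 of 18 tested in each genotype, and 12 had an interaction below 0 (median -0.10). C1qa, a chain of the complement initiator C1q, rose by 2.24 and 1.97 (interaction -0.27, interval -0.49 to -0.04). C3, the central complement component, rose by 4.61 and 3.84 (interaction -0.78, interval -1.73 to 0.18), and the secreted chaperone Clu by 0.81 and 0.60 (interaction -0.21, interval -0.33 to -0.09). These intervals are not adjusted for the number of genes. edgeR called none of C1qa, C3 and Clu (adjusted p = 0.433, 0.618 and 0.245), and DESeq2 called Clu (adjusted p = 0.0190). Of 22 tested genes of Fc receptors and phagocytosis, 16 had an interaction below 0, with a median of -0.10 (-0.18 without wild type LPS libraries 1 and 2). Tyrobp, the signalling adaptor of TREM2, rose by 1.88 and 1.52 (interaction -0.36, interval -0.73 to 0.00, adjusted p = 0.517). Mfge8, a bridging opsonin, fell by 0.47 in knockout against a wild type value of -0.18 (interaction -0.29, adjusted p = 0.350).

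Class II antigen presentation had the lowest median interaction after the acute phase and neutrophil lists. Of its 7 tested genes, 3 rose in wild type and 2 in knockout, 5 had an interaction below 0, and the median was -0.73. H2-Eb1, a class II beta chain, ran from 2.14 to 3.54 CPM (median 2.96) in wild type PBS, from 2.13 to 8.22 CPM (median 5.88) in wild type LPS, from 2.05 to 5.50 CPM (median 2.55) in knockout PBS and from 2.04 to 4.66 CPM (median 2.60) in knockout LPS. All 4 groups overlapped. H2-Eb1 rose by 1.02 in wild type against a knockout value of -0.00, with an interaction of -1.02 (interval -1.80 to -0.24, adjusted p = 0.357). H2-Ab1 and H2-DMb1 had interactions of -0.84 and -0.76 (adjusted p = 0.496 and 0.458). Reads can be shared within this gene family. Of 12 class I genes, 9 rose in each genotype, with a median interaction of -0.10 (-0.18 without wild type LPS libraries 1 and 2).

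Of 23 Toll-like receptor and NF-kB genes, 19 rose in wild type and 18 in knockout, 12 had an interaction below 0 and the median was -0.06 (-0.02 without wild type LPS libraries 1 and 2). No gene of this list reached an unadjusted p under 0.05. Of 17 IL-6 and STAT3 genes, 12 had an interaction below 0 (median -0.19). Il4ra, the interleukin 4 receptor chain, rose by 1.82 and 1.11 (interaction -0.70, adjusted p = 0.306), and Junb, an AP-1 subunit, rose by 0.64 in wild type against 0.06 in knockout (interaction -0.58, adjusted p = 0.277). Of 15 cytokines and chemokines, 9 had an interaction below 0 (median -0.20).

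Of 25 type I interferon genes, 16 had an interaction above 0 and 9 below, against 50.5% below 0 over all genes. Their median was 0.08 with all libraries and 0.03 without wild type LPS libraries 1 and 2. Of these 25 genes, 14 rose in wild type and 15 in knockout. Ifi27l2a, an interferon-inducible gene, ran from 0.850 to 4.44 CPM (median 2.02) in wild type PBS, from 2.42 to 6.58 CPM (median 3.88) in wild type LPS, from 0.807 to 2.46 CPM (median 1.63) in knockout PBS and from 2.74 to 11.7 CPM (median 8.77) in knockout LPS. The knockout groups did not overlap each other, and the LPS groups overlapped between genotypes. Ifi27l2a rose by 2.37 in knockout against a wild type value of 0.87 (adjusted p = 0.0621), and the interaction of 1.50 ± 0.48 was not called (adjusted p = 0.293). Its neighbour Ifi27 rose by 0.33 in knockout against 0.06 in wild type (interaction 0.27, adjusted p = 0.505). The list of interferon gamma GTPases also holds the interferon regulatory factors Irf1 and Irf8. Of its 11 tested genes, 6 were above 0 and 5 below, with a median of 0.002 (-0.14 without wild type LPS libraries 1 and 2).

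Since the oxidase makes superoxide, antioxidant genes were read as a list. Of 24 tested, 9 rose in wild type and 6 in knockout, and 19 had an interaction below 0, with a median of -0.17 and with every 95% interval within 1 log2 unit of 0. Gpx1, which reduces hydrogen peroxide with glutathione, rose by 0.79 and 0.42 (interaction -0.37, adjusted p = 0.245). Prdx6, a peroxiredoxin of astrocytes, rose by 0.68 and 0.40 (interaction -0.27, adjusted p = 0.268), and Prdx1 rose by 0.40 in wild type against 0.10 in knockout (interaction -0.30, adjusted p = 0.240). Without wild type LPS libraries 1 and 2 all 3 were called, at -0.52, -0.33 and -0.36. These were the only 3 of the 24 called there, against 4 of the 20 lysosomal genes. Those libraries were singled out in part by levels of LPS-responsive genes, so these calls add no separate evidence. Of 12 genes of iron and haem, 11 had an interaction below 0 (median -0.24). Trf, the iron carrier transferrin, rose by 0.40 in wild type against 0.15 in knockout (interaction -0.25, adjusted p = 0.300).

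Astrocyte reactivity genes rose in both genotypes. Of 11 genes of the shared reactive programme, 10 rose in wild type and 8 in knockout, and 10 had an interaction below 0, with a median of -0.38. Gfap, the intermediate filament of astrocytes, ran from 52.5 to 62.4 CPM (median 57.3) in wild type PBS, from 220 to 335 CPM (median 280) in wild type LPS, from 49.5 to 76.0 CPM (median 58.4) in knockout PBS and from 152 to 290 CPM (median 216) in knockout LPS. LPS and PBS libraries did not overlap, and the LPS groups overlapped between genotypes. Gfap rose by 2.26 ± 0.10 (SE) in wild type and by 1.88 ± 0.10 in knockout, with an interaction of -0.38 (interval -0.67 to -0.09, adjusted p = 0.357). Vim, the filament protein vimentin, rose by 1.58 and 1.27 (interaction -0.31, adjusted p = 0.445). The A1 and A2 lists had medians of -0.08 and 0.01, and of -0.14 and -0.05 without wild type LPS libraries 1 and 2. Of 16 astrocyte identity genes, 9 were below 0 (median -0.06, and -0.04 without the same libraries), among them Ndrg2, which rose by 0.44 and 0.18 (interaction -0.26, adjusted p = 0.199).

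Endothelial identity and barrier genes held 10 of 25 members with an interaction below 0 at an unadjusted p under 0.05, and 1 above 0, against 5.71% and 4.08% over all genes. In all, 22 of the 25 rose in wild type and 19 in knockout, 18 had an interaction below 0 and the median was -0.22. The genes raised by LPS are a closer background. Of the 1793 raised on average, 280 had an interaction below 0 and 35 above 0 at an unadjusted p under 0.05. Cldn5, the tight junction claudin of brain endothelium, rose by 2.17 and 1.65 (interaction -0.53, adjusted p = 0.328). Esam, an endothelial adhesion molecule, rose by 1.35 and 0.92 (interaction -0.43, adjusted p = 0.276). Slco1a4, an organic anion transporter of the barrier, rose by 1.09 and 0.69 (interaction -0.40, adjusted p = 0.268). Ly6c1 and Spns2, described above, are endothelial genes that lay on the other side. The summed level of the list ran from 1939 to 2197 CPM in wild type LPS and from 1729 to 1963 CPM in knockout LPS, against 1185 to 1311 CPM and 1166 to 1302 CPM after PBS.

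Of the 19 endothelial activation genes, 13 had an interaction below 0 (median -0.25). In pericytes and smooth muscle, 9 of 11 did (median -0.21). Rgs5, a pericyte regulator of G protein signalling, rose by 0.78 and 0.53 (interaction -0.25, adjusted p = 0.393). Myh11, the smooth muscle myosin, ran from 2.14 to 5.18 CPM (median 3.76) in wild type PBS, from 2.35 to 5.18 CPM (median 3.37) in wild type LPS, from 1.08 to 3.42 CPM (median 2.52) in knockout PBS and from 3.85 to 6.37 CPM (median 5.23) in knockout LPS. The knockout groups did not overlap and the wild type groups did. Myh11 rose by 1.14 in knockout against a wild type value of -0.06, with an interaction of 1.21 ± 0.36 (adjusted p = 0.268).

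Of 23 glucocorticoid-responsive and metallothionein genes, 14 had an interaction above 0 and 9 below, against 50.5% below 0 over all genes. The median was 0.11 with all libraries and 0.17 without wild type LPS libraries 1 and 2. Values ran from -0.82 for Lcn2, which is also in this list, to 1.30. Fkbp5, a co-chaperone of the glucocorticoid receptor, rose by 0.44 and 0.83 (interaction 0.40, adjusted p = 0.357). Arrdc2, an arrestin-domain gene, rose by 0.72 in knockout against -0.07 in wild type (interaction 0.79, adjusted p = 0.268). The metallothioneins Mt1 and Mt2 rose by 1.06 and 0.82 in wild type and by 1.01 and 0.79 in knockout, with interactions of -0.04 and -0.03 and intervals from -0.20 to 0.11 and from -0.19 to 0.13.

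Of 16 clock genes, 9 had an interaction below 0 and 7 above, with a median of -0.02 (0.01 without wild type LPS libraries 1 and 2). Values ran from -0.56 to 0.43, so the list as a whole was not shifted. For the clock genes Per1 and Nr1d2 the genotypes lay further apart after PBS than after LPS, while neither interaction was called. Per1, a clock repressor that is also among the glucocorticoid-responsive genes, rose by 0.26 in wild type against a knockout value of -0.13 (interaction -0.40, adjusted p = 0.199). Its genotype difference was 0.31 after PBS (adjusted p = 0.0582) and -0.09 after LPS. Nr1d2, the nuclear receptor REV-ERB beta, was 0.33 higher in knockout after PBS (adjusted p = 0.00234) and 0.01 after LPS, with an interaction of -0.32 (adjusted p = 0.229). Of 18 immediate early genes, 14 had an interaction below 0 (median -0.25). Npas4 and Nr4a1, both induced by neuronal activity, had interactions of -0.74 and -0.50 (adjusted p = 0.293 and 0.357). Hours of injection and collection are not stated in the sources used here, so time of day and the groups cannot be told apart for these genes.

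Most lists of neuronal and oligodendrocyte genes had medians near 0, and the width of their intervals differed. All 34 tested genes of synapse and neurotransmission had 95% intervals within 1 log2 unit of 0, with 20 below 0 and a median of -0.02 (-0.01 without wild type LPS libraries 1 and 2). Snap25, a synaptic vesicle fusion protein, ran from 1785 to 1899 CPM (median 1863) in wild type PBS, from 1177 to 1662 CPM (median 1459) in wild type LPS, from 1629 to 1964 CPM (median 1770) in knockout PBS and from 1578 to 1730 CPM (median 1618) in knockout LPS. The wild type groups did not overlap and the knockout groups did. Snap25 fell by 0.36 in wild type against a knockout value of -0.12 (adjusted p = 0.196), and the interaction of 0.24 ± 0.08 was not called (adjusted p = 0.323). Myelin and oligodendrocyte genes had 10 of 20 below 0 (median -0.02), oligodendrocyte precursor genes 8 of 13 (median -0.05), and nuclear genes of oxidative phosphorylation 15 of 27 (median -0.03). Without wild type LPS libraries 1 and 2 these 3 medians were 0.006, -0.06 and -0.01. Every interval in these 3 lists was within 1 log2 unit of 0. Other neuronal lists were less tightly bounded. That held for 17 of 19 neuropeptide genes, with values down to -0.88 and a median of -0.06, for 8 of 9 dopaminergic genes, with a median of 0.02, and for 8 of 16 genes of the olfactory nerve and bulb, with values from -1.44 to 0.84 and a median of -0.13. Without wild type LPS libraries 1 and 2 these medians were -0.10, 0.14 and -0.21.

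Genes encoded by the mitochondrial genome lay on the positive side, 7 of 8 with a median of 0.16 (0.28 without wild type LPS libraries 1 and 2). mt-Nd1, a subunit of complex I, fell by 0.35 in wild type against a knockout value of -0.05 (interaction 0.30, adjusted p = 0.357). The summed level of the list ran from 20652 to 29073 CPM in wild type LPS, wider than the 24645 to 28559 CPM in knockout LPS, and its part in other results was not tested. Over all 54 lists, 736 distinct genes were tested, Cybb alone was called by edgeR and the 9 genes named above by DESeq2, and 41 lists had a median below 0 and 13 above. Markers of neighbouring tissue varied between single libraries. The pituitary list summed to 2239 CPM at the highest in knockout LPS, where the median was 110 CPM, and to at most 149 CPM in the other groups.

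Leaving out wild type LPS libraries 1 and 2 changed the count of called interactions from 1 to 249, 84 higher (0.572% of 14684 genes tested) and 165 lower (1.12%), or 1.70% in all. These 2 libraries were singled out in an earlier description of the same data, in part by levels of LPS-responsive genes, and so leaving them out raises the wild type LPS change by construction. The 249 genes are therefore given as a description of what those 2 libraries weigh. All 249 had the same sign with all libraries, and 163 of the 165 and 73 of the 84 had an unadjusted p under 0.05 there, against 9.78% of all genes. Both fits share all the other libraries, so this overlap was largely fixed in advance and adds no separate evidence. Of the 165 lower genes, 161 had a positive LPS change in wild type, and in knockout 59 were positive and 106 negative. Of the 84 higher genes, 82 had a negative change in wild type. Apart from Cybb, the differences were small, with medians of 0.38 log2 units in size among the lower and 0.49 among the higher genes.

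The lower genes without these libraries included Ctsd, Pbxip1, S100b, Gpx1, Cd63, Lamp1, Grn, Per1, Gfap and Esam, whose values with all libraries are given above. Gfap went from -0.38 to -0.50 (adjusted p = 0.0440) and Grn from -0.36 to -0.48 (adjusted p = 0.00531). The higher genes included 12 mitochondrial genes, 7 of them transfer RNAs, and the nuclear-retained RNAs Malat1 and Snhg11 with the splicing factor gene Pnisr. Malat1 ran from 2831 to 4099 CPM in wild type LPS, with libraries 1 and 2 at 3845 and 4099 CPM, and from 3788 to 4326 CPM in knockout LPS. Its interaction went from 0.25 (adjusted p = 0.319) to 0.35 (adjusted p = 0.0128). Mitochondrial ribosomal RNA took 5.07 and 5.39% of the counts of libraries 1 and 2 and 3.39 to 3.596% of those of wild type LPS libraries 3 to 6. Its part in the 84 genes was not tested.

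**Figure D5:**
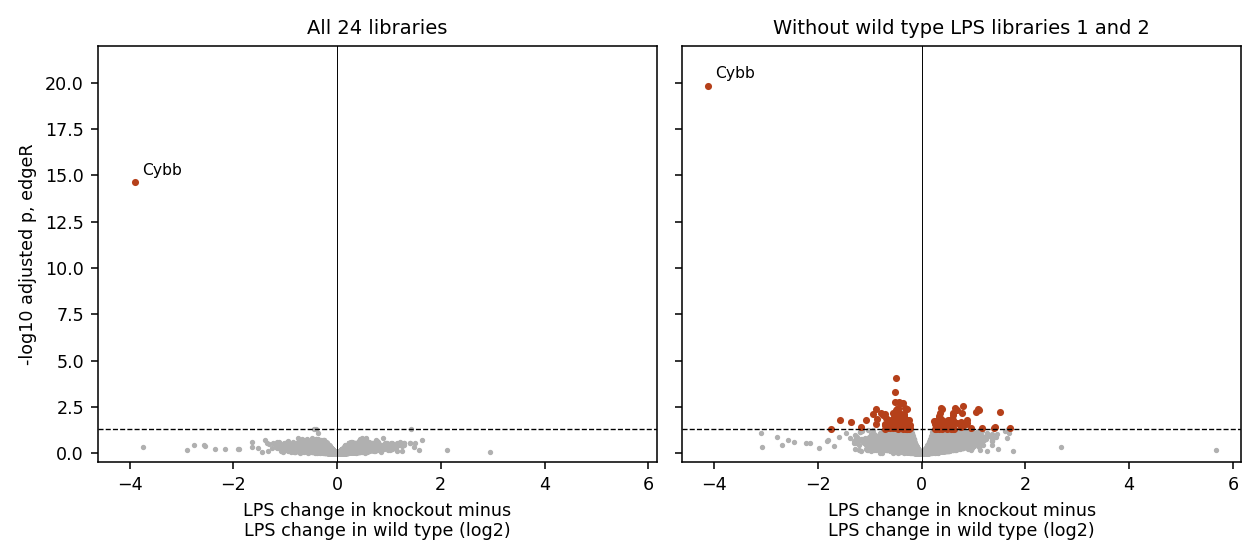
Interaction (log2, horizontal) against the -log10 adjusted p of edgeR's test (vertical) for the 14380 genes tested with all libraries, from all 24 libraries (left) and without wild type LPS libraries 1 and 2 (right). Red points are called and the dashed line is the threshold. Cybb stands alone on the left, and 249 genes pass on the right, all but Cybb within 2 log2 units of 0.

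The interaction can also be read as the genotype difference after LPS minus that after PBS. Knockout against wild type called 19 genes after PBS (0.132% of all tested, 6 or 0.0417% higher and 13 or 0.0904% lower) and 151 after LPS (1.05%, 38 or 0.264% higher and 113 or 0.786% lower). Of the 139 genes called after LPS only, none had a called interaction with edgeR, and 79 had an unadjusted p under 0.05, so a larger count after LPS is not a tested difference for any of them. Esam is an example. Its genotype difference was -0.51 log2 units after LPS, lower in knockout (adjusted p = 0.000195), -0.08 after PBS (adjusted p = 0.886), and its interaction of -0.43 had an adjusted p of 0.276. The 12 genes called after both injections had the same sign each time. The 18 genes other than Cybb called after PBS had interactions from -1.44 to 1.255, and 5 of them an unadjusted p under 0.05.

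Some genes differed between the genotypes by the same amount after either injection, so the difference cancels in the interaction. Wdfy1, a gene of endosomal Toll-like receptor signalling, ran from 53.2 to 62.7 CPM in wild type and from 14.4 to 21.1 CPM in knockout libraries, and Gabra2, a GABA-A receptor subunit, from 97.8 to 122 CPM and from 42.0 to 59.8 CPM. Their interactions were 0.03 (interval -0.22 to 0.28) and -0.03 (interval -0.23 to 0.17). The groups labelled wild type and knockout therefore differed at genes other than Cybb although the strain label is the same. An effect of the Cybb allele and of any other difference between the 2 groups of mice cannot be told apart in the interaction.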

How the data were processed

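The deposited table holds raw whole-number counts of 3′ tags per gene, made by the authors with bcl2fastq, STAR 2.7.3a and featureCounts of Subread 2.0.0 on mm10 (GRCm38), per the submitters' processing notes, which also name R 3.6.1 and DESeq2 1.26.0. Annotation release, strand use, duplicate removal and molecular identifiers are not stated in the sources used here. A gene and one that overlaps it or runs antisense may therefore share reads. Positions come from GENCODE M21 on GRCm38, and promoters from RefSeq on GRCm38.p6.

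Groups and libraries follow the labels. All 24 libraries entered 1 fit with edgeR 4.0.16 in R 4.3.3 (a mean per group, TMM, filterByExpr with its minimum count of 10, quasi-likelihood F test, 20 residual degrees of freedom). Benjamini-Hochberg adjustment ran over the 14380 genes kept, within each contrast, and genes were called under 0.05. The 95% intervals use the fit's SE and 43.06 total degrees of freedom. CPM are counts scaled to a library total of 1000000. The script was tested on simulated data. It recovered 47.8% of interactions of 0.5 log2 units, 80.6% of those of 1 and 95.5% of those of 2, with 67 genes at each size. Of its 167 calls there, 10.2% were unchanged genes.

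The comparison, the gene lists and the alternatives were chosen with earlier results of these data known. Named genes were Cybb, the 8 genes of smallest interaction p on each side (mean of at least 2 CPM, no predicted symbols) and the 3 genes of smallest p in each list. Mt1, Mt2, Saa3, Lcn2, S100a8, C3, Cldn5, Wdfy1, Gabra2, Malat1, Snhg11, Pnisr and the remaining oxidase genes were added after values were seen. Alternatives were other normalisation (DESeq2's size factors), DESeq2 1.42.0, limma-voom (limma 3.58.1), other filters, a robust spread, the replicate block, leaving out libraries, leaving out ribosomal RNA genes, and an adjusted p under 0.10.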

Additional observations from a re-analysis of the deposited data

Results flagged for a closer look

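The LPS change of Cybb differed between the genotypes by -3.90 log2 units, by the test of the interaction itself. This is the difference described in the report, with more Cybb tags in the libraries labelled knockout than in wild type after either injection.

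Single libraries far from the other 5 of their group were found in 7 of 116 tests, 1 for each of 4 groups and 29 genes, by Dixon's ratio test at its 95% critical value. Chance gives about 1 in 20. Pbxip1 was at 99.8 CPM in knockout LPS library 2. Plekho2 was at 23.2 CPM in wild type PBS library 5. H2-Eb1 was at 5.50 CPM in knockout PBS library 5. Snap25 was at 1785 CPM in wild type PBS library 6. S100a8 was at 207 CPM in knockout LPS library 6. Wdfy1 was at 53.2 CPM in wild type PBS library 4. Gabra2 was at 122 CPM in wild type LPS library 1.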

How the results depend on the processing

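Cybb was called in each setting that gave it an adjusted p, with values from -3.79 to -4.08 when each library was left out. The count of called interactions, 1 with all libraries, was 25 with DESeq2, 67 without a filter on low counts, 3 with a robust spread estimate, 4 without Gm42418 and the mitochondrial ribosomal RNA genes, 249 without wild type LPS libraries 1 and 2, and 5 at an adjusted p under 0.10. Leaving out each library gave 1 to 20, with 20 and 7 without wild type LPS libraries 1 and 2 in turn and 2 to 4 without wild type PBS libraries 3 or 5, wild type LPS library 3, knockout PBS libraries 1 to 4 or knockout LPS libraries 1 or 4. Other size factors, limma-voom and a stricter filter, which removed no gene, gave 1. Of the 25 genes of DESeq2, 23 were among the 249. The causes were not tested.

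With the replicate number as a block, 8 interactions were called (3 higher, 5 lower), among them Pbxip1 at -0.44 (adjusted p = 0.0159), Ctsd at -0.39 (adjusted p = 0.0142) and S100b at -0.36 (adjusted p = 0.0142). The labels do not say that equal numbers share a litter, batch or day, and only 10 of the 36 correlations between deviations of same-numbered libraries, which ran from -0.14 to 0.33, were over 0.1, so the numbers were not taken as a pairing. As a hint from the data, 11 of 24 libraries were closest to their own number, and 4 of the 6 pairs of number 5 and 3 of the 6 of number 6 were over 0.1.

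The genotype count after PBS, 19 with all libraries, was 88 without a filter, 39 with the replicate block, 36 without wild type LPS libraries 1 and 2, and 13 to 32 when each library was left out, with 30 without wild type LPS library 5 and 32 without knockout PBS library 1. The count after LPS, 151, was 293, 273 and 561 in the same settings and 72 to 289 by library, with 266 and 289 without wild type LPS libraries 1 and 2, 94, 72 and 98 without wild type LPS libraries 3, 4 and 6, and 96 and 97 without knockout LPS libraries 2 and 3. The counts of LPS changes stayed within 1.5 times. Interactions near 0 changed sign without wild type LPS libraries 1 and 2 for Cyba (-0.037) and Gabra2 (0.0203), and by library for Ncf4 (-0.54 to 0.29), Wdfy1 (-0.0402 to 0.10) and Gabra2 (-0.0716 to 0.0248). Among single genes, Id3 was called without wild type LPS library 2 or knockout PBS library 1, Plekho2 without wild type PBS library 5 or wild type LPS libraries 1 or 2, Sparc without wild type LPS library 3, and Rmst, Zfc3h1, Lamp1, Cd63, Gpx1 and Per1 without wild type LPS library 1.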
